A study of Mus musculus with 16 samples.

Results

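The genes described here are 10 genes of the endoplasmic reticulum folding machinery, namely Hspa5, Hsp90b1, Calr, Pdia6, Pdia4, Creld2, Manf, Dnajb9, Sdf2l1 and Xbp1, measured in mouse blastocysts treated with 3 kinase inhibitors. Every probe set whose platform annotation named only 1 of these genes was taken, which gave 20 of the 45037 probe sets measured in all samples. Of these 20 probe sets 18 were bright enough to be tested, and they covered all 10 genes. The remaining 2 probe sets, 1 of Pdia6 (1430983_at) and 1 of Pdia4 (1450620_at), read between 1.5 and 132.5 signal units in the 12 samples and were too dim to test. Total RNA was taken from blastocysts treated with 20 µM SB203580 (SB, an inhibitor of p38 MAP kinases), 25 µM SP600125 (SP, an inhibitor of JNK) or 20 µM U0126 (U, an inhibitor of MEK, the kinase that activates ERK), and from blastocysts whose labels give no treatment (WT), the controls. The labels give no strain, embryo age or duration of treatment, and do not say whether the controls received the solvent. Each group had 3 samples: replicate 1 was labelled by a small sample assay and read on a pair of Affymetrix arrays, 430A and 430B, and replicates 2 and 3 were labelled by a two-cycle assay and read on 430 2.0 arrays. Whether the replicates came from independent cultures is unknown, and the p-values reflect the spread among the samples at hand, which may be technical.

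The endoplasmic reticulum folds secreted and membrane proteins. Hspa5 (BiP) and Hsp90b1 (GRP94) hold unfolded chains, Calr (calreticulin) binds the sugars of unfinished glycoproteins, and the protein disulfide isomerases Pdia4 and Pdia6 set disulfide bonds. When unfolded protein gathers, the sensors Ern1 (IRE1), Atf6 and Eif2ak3 (PERK) raise this machinery, a program called the unfolded protein response. IRE1 splices the Xbp1 message so that it encodes an active transcription factor, ATF6 is cut free by the proteases Mbtps1 and Mbtps2, and both factors act on chaperone promoters through the ER stress response element. PERK acts apart from these, through translation and the factor ATF4. In the blastocyst, the primitive endoderm is a secretory layer that makes basement membrane.

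The promoters are shown because this element is the textbook link between the members. RefSeq promoter sequences (build GRCm38.p6, from 250 bases before to 50 bases after each transcription start) were found for 9 of the 10 members. The element was searched on both strands as CCAAT, any 9 bases, then CCACG. It was present in 5 of the 9 member promoters, those of Hspa5, Pdia6, Hsp90b1, Calr and Creld2, and in 39 of all 32851 promoters (0.119%). With up to 1 base of CCACG changed, Pdia4 joined these 5 members, and 328 promoters (0.998%) held it. CCACG alone, which overlaps every exact match, was present in 8 of the 9 member promoters and in 32.8% of all promoters. A second element, ATTGG, any base, then CCACG, was present in 12 promoters (0.0365%), and another, TGACG followed directly by TGG, in 222 promoters (0.676%), and neither was in a member's window; both of these also contain CCACG on 1 strand. In the sequences that follow, given 5′ to 3′ on the gene's own strand, capitals mark the outer parts of the element, which reads CGTGG then ATTGG where it lies on the opposite strand.
Hspa5, the bases from -250 to -1, chr2:34771840-34772089, gene on the plus strand: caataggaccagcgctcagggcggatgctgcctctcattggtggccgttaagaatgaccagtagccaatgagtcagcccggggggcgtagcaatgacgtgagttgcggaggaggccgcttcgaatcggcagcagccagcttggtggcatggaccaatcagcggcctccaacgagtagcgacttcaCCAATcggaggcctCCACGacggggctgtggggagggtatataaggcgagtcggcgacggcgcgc
Pdia6, chr12:17266471-17266529, gene on the plus strand: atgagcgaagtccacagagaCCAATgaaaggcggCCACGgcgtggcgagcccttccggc
Creld2, chr15:88819500-88819558, gene on the plus strand: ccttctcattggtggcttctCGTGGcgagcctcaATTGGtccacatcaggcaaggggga
Hsp90b1, the farther match, chr10:86705618-86705676, gene on the minus strand: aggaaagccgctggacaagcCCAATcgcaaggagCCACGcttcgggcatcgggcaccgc
Hsp90b1, the nearer match, chr10:86705513-86705571, gene on the minus strand: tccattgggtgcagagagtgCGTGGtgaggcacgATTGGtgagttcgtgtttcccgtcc
Calr, chr8:84847055-84847113, gene on the minus strand: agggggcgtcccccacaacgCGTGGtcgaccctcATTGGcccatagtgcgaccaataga
Pdia4, 1 base of the second part changed, chr6:47813582-47813640, gene on the minus strand: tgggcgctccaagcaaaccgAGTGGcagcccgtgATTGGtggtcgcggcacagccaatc
The match nearest to a start was that of Hspa5, which began 65 bases upstream, and the farthest was in Hsp90b1, which began 212 bases upstream. A match describes the letters in these windows and is no measure of binding.

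**Figure D1:**
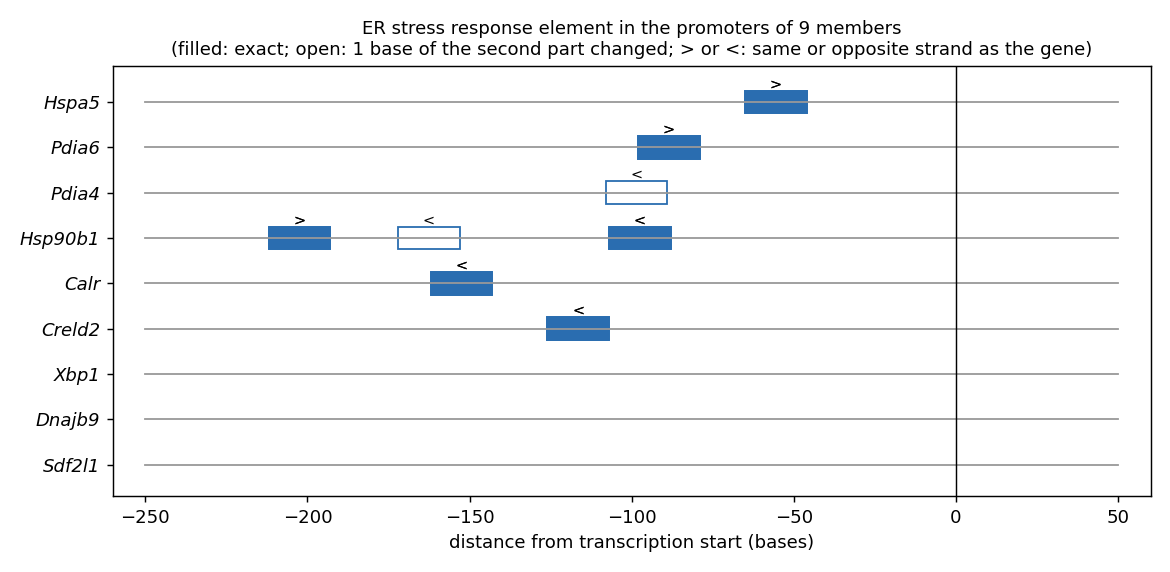
Position of the ER stress response element in the promoters of 9 members, with distance from the transcription start in bases on the horizontal axis and 1 line per gene. Filled boxes are exact matches and open boxes have 1 base of the second part changed; exact matches lie in 5 genes, and Xbp1, Dnajb9 and Sdf2l1 have no box.

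The deposited values were signal intensities on a linear scale, and each array had been scaled to a trimmed mean of 500 units, so a change here is a change in share of the total signal. The median signal of the 430 2.0 arrays was 77.7 and 83.0 in the U samples and 61.1 to 68.9 in the other samples. Replicate 1 and replicates 2 and 3 differ in array and labelling, so all differences were taken within array type. Changes are differences of log2(signal + 12.6) with standard errors from limma over 3 samples per group, and a probe set was called at a Benjamini-Hochberg adjusted p under 0.05 over all 27022 probe sets tested. Where a gene had several probe sets, the brightest one stands for it. The blastocyst label was checked on its markers: Krt8, a keratin of trophectoderm, read 11065.9 to 40703.4, Pou5f1, a factor of pluripotent cells, 904.6 to 4152.2, and Gata6, a factor of primitive endoderm, 2214.7 to 5278.8 over the 12 samples. Of marker genes of cells outside the embryo, the brightness filter was passed by 1 of 6 for cumulus and granulosa cells, 3 of 5 for uterine and oviduct epithelium and 2 of 5 for blood and immune cells. On the 430 2.0 arrays the summed signals of these lists were 214.2 to 351.8, 347.9 to 485.2 and 131.3 to 431.5. In replicate 1 they were 1296.1 to 1948.3, 617.2 to 1155.1 and 381.9 to 475.9. Foxl2, of the first list, read 1057.9 to 1714.4 in replicate 1 and 71.0 to 174.3 on the 430 2.0 arrays. Blastocysts were measured whole, so fewer cells of a type and less RNA per cell cannot be told apart.

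With U0126, part of the folding machinery was lower. Against controls, 4 of the 18 member probe sets were called, all lower, and they belong to Hspa5 (both of its brighter probe sets), Manf and Pdia6. Over all probe sets tested, 0.274% were called lower in this comparison. The brightest probe set was below 0 in 10 of 10 genes, with a median log2 change of -0.50 and a range of -0.68 to -0.06, beside a median of 0.06 over all probe sets tested, of which 43.0% were below 0. An unadjusted p under 0.05 was found for 13 of the 18, against 12% of all probe sets. The members were chosen with earlier results of these data known. Shares over all probe sets, here and below, therefore describe the members and do not test them as a set. When arrays were centred on their medians, the median of the 10 genes in this comparison moved to -0.69 and that of all probe sets to -0.13, since that scaling shifts all probe sets of an array alike; relative to all probe sets the 10 genes stood at -0.56 log2. With quantile normalization the medians were -0.45 for the 10 genes and -0.004 for all probe sets. The split of all calls moved too, being 47 higher and 74 lower with the deposited scaling and 16 higher and 225 lower with median centring.

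Hspa5, the main Hsp70 of this compartment, is the gene on which the result rests most. Its brightest probe set (1416064_a_at) read 7574.0, 11873.3 and 14799.2 in U, against 9641.5, 24346.2 and 21536.6 in WT. Both U arrays of the 430 2.0 type lay below both WT arrays, and the replicate 1 array in U lay below that in WT. The change was -0.64 ± 0.12 log2 (SE, 3 samples per group), or 0.641 times the control level, with adjusted p = 0.0197 by limma. The second probe set of Hspa5 (1427464_s_at) read 1742.2, 3412.4 and 3387.9 in U, against 2636.6, 8350.4 and 8538.6 in WT. Its change was larger, -1.07 ± 0.13 log2 or 0.476 times the control level (limma, adjusted p = 0.00125), and it was lower in U in 3 of 3 replicates. The third probe set (1447824_x_at) did not follow them. It read 6717.8 on the 430B array and 1509.9 and 1491.3 on the 430 2.0 arrays in U, against 8777.6, 1063.5 and 1237.5 in WT, so that it was lower in U in replicate 1 and higher in the other replicates (0.13 ± 0.21 log2, limma, adjusted p = 0.857). Its suffix, x_at, and the s_at of the second probe set both mark probe sets whose probes may also detect other transcripts. Calr and Xbp1 have member probe sets with these suffixes too, among them the brightest one of Xbp1.

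Manf and Pdia6 were the other genes called. Manf, a small resident protein that binds BiP and can be secreted, read 1740.2, 3526.6 and 3560.9 in U, against 2163.1, 6622.6 and 6012.7 in WT. That is -0.66 ± 0.13 log2 (limma, adjusted p = 0.0334), lower in 3 of 3 replicates. Pdia6, a disulfide isomerase that works with BiP, read 1871.3, 3300.2 and 2972.3 in U, against 2216.9, 5896.8 and 5846.6 in WT. Its change of -0.68 ± 0.14 log2 (limma, adjusted p = 0.0435) was the largest among the brightest probe sets of the members in this comparison. For both genes the U and WT arrays did not overlap within either array type, and the gap was narrower in replicate 1.

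Creld2, an ER protein induced by stress, had nearly the same values but was not called. It read 1390.4, 2099.9 and 2144.9 in U, against 1698.0, 4515.9 and 3228.2 in WT, a difference of -0.66 ± 0.15 log2 (limma, adjusted p = 0.068). The U values were below the WT values in each array type, and the 2 WT arrays of the 430 2.0 type were farther apart than the U arrays. The second probe set of Hsp90b1 (1438040_a_at) read 912.0, 2381.2 and 3466.3 in U, against 1582.9, 5603.7 and 5551.7 in WT. Here too the groups did not overlap within array type, and the difference was -0.90 ± 0.20 log2 (limma, adjusted p = 0.0667). The brightest probe set of Hsp90b1 read 2391.6, 6208.4 and 5527.0 in U, against 2283.0, 8508.0 and 10970.6 in WT, so replicate 1 was not lower in U, and the difference was -0.46 ± 0.17 log2 (limma, adjusted p = 0.28).

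Xbp1, the transcription factor of the IRE1 branch, read 2268.9, 4780.4 and 5604.8 in U, against 3505.2, 7421.7 and 7296.9 in WT on its brightest probe set. All U values were below the WT values of the same array type, and the difference was -0.55 ± 0.13 log2 (limma, adjusted p = 0.0769). Its 3 dimmer probe sets gave -0.48, -0.39 and -0.12 log2, and none was called. The files do not separate the spliced from the unspliced message. Calr read 6855.5, 6160.7 and 6551.4 in U, against 7258.6, 8607.2 and 11250.1 in WT (-0.45 ± 0.15 log2, limma, adjusted p = 0.233), and its other 2 probe sets both gave -0.27 log2. The values of Calr were close in replicate 1 and separated in the other replicates.

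The remaining members differed little between U and WT. Dnajb9, a J-domain partner of BiP, read 704.2, 1335.7 and 1619.2 in U, against 1029.2, 1720.5 and 1556.4 in WT, and the groups overlapped on the 430 2.0 arrays (-0.28 ± 0.15 log2, limma, adjusted p = 0.462). Pdia4 was dim, at 254.6, 293.5 and 282.5 in U, against 247.9, 458.5 and 211.4 in WT. Sdf2l1, a partner of ER J-domain proteins, was dimmer still, at 203.1, 151.2 and 209.5 in U, against 201.0, 182.0 and 200.4 in WT. The differences were -0.06 ± 0.30 log2 for Pdia4 and -0.06 ± 0.27 log2 for Sdf2l1, with wide 95% intervals of -0.70 to 0.58 and -0.64 to 0.52.

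**Figure D2:**
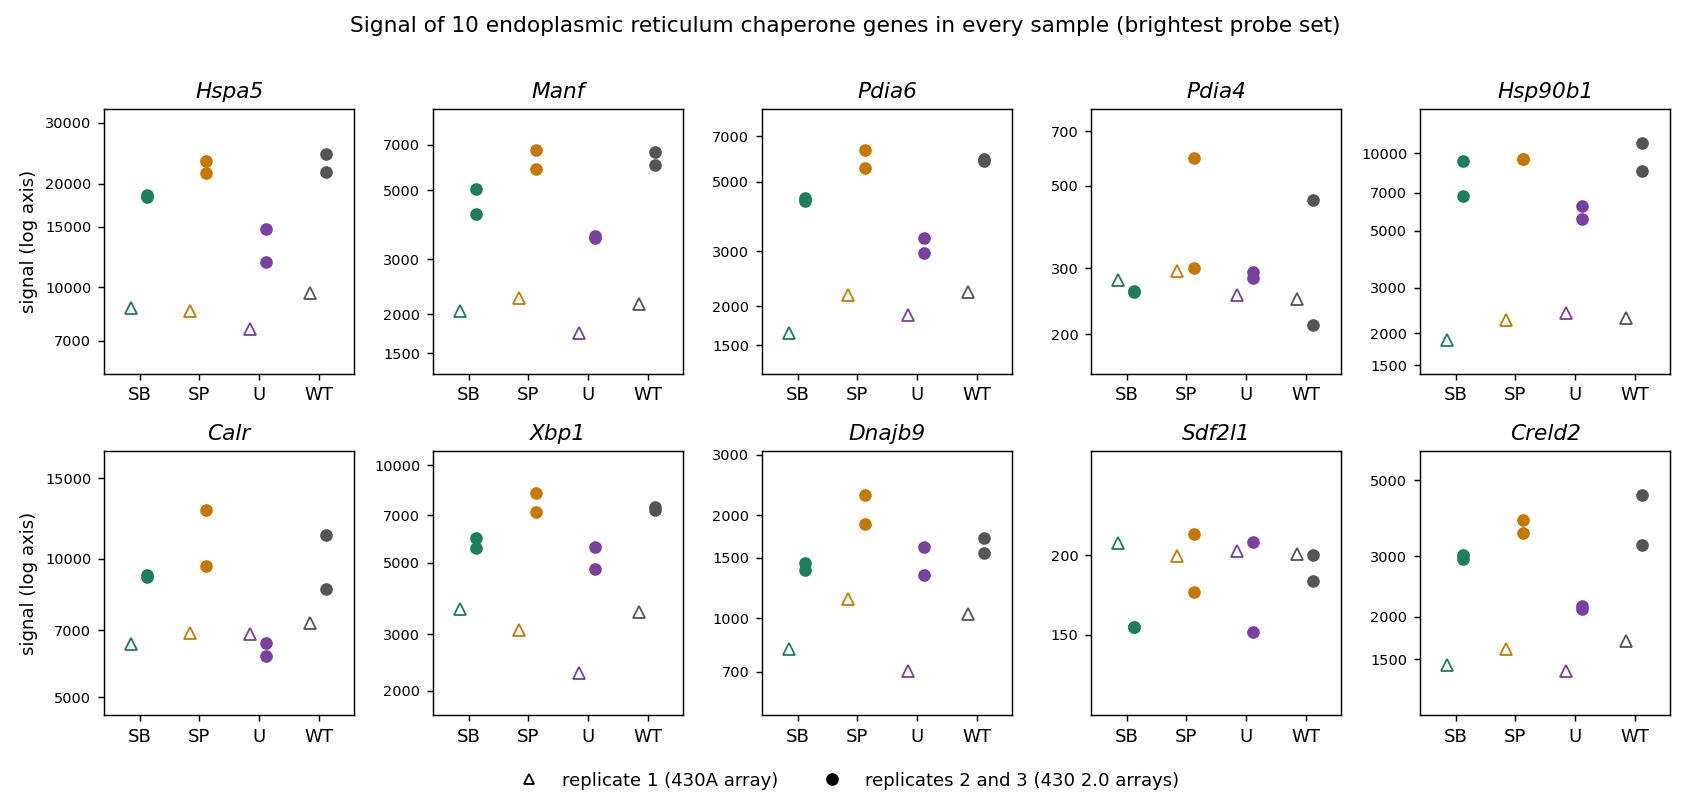
Signal (log axis, units of the deposited scale) of the brightest probe set of each of the 10 genes in SB, SP, U and WT, with triangles for replicate 1 (430A arrays) and circles for replicates 2 and 3 (430 2.0 arrays). Both U circles lie below both WT circles in 7 of the 10 genes.

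On the 430 2.0 arrays, U had the lowest mean of the 4 groups in 7 of 10 genes, and in 6 of them (Hspa5, Manf, Pdia6, Hsp90b1, Calr and Creld2) both U arrays lay below all other 430 2.0 arrays. Over all probe sets tested, 15% had both U arrays below both WT arrays and 5.49% had both U arrays below all others. In replicate 1, U was the lowest of the 4 samples in 5 of 10 genes. The median over the 10 genes of the U minus WT difference was -0.26 log2 in replicate 1, -0.66 in replicate 2 and -0.61 in replicate 3. The difference was thus smaller in replicate 1. With 1 sample per group there, array type, labelling and the samples themselves cannot be told apart. RNA or labelling quality was read from the ratio of 3′ to 5′ actin probe sets. It was 1.62 in U and 2.47 in WT on the 430A arrays and 1.58 to 1.75 on all 430 2.0 arrays. The same ratio for Gapdh was 2.61 in U and 4.03 in WT on the 430A arrays. On the 430 2.0 arrays the Gapdh ratio was 3.69 and 3.79 in U, against 4.80 and 3.05 in WT. The part of these ratios in the result was not tested. The number of member probe sets called depended on single samples. It was 7 without replicate 1 of U, 2 without replicate 1 of WT, and 1 when replicate 2 or 3 of either group was left out. The Hspa5 probe set 1427464_s_at was called in all 6 of these fits, Manf in 2, and Pdia6 and the brightest Hspa5 probe set in 1 each. With moderation of variances that did not follow intensity, none of the 18 was called, and the adjusted p of 1427464_s_at was 0.127; in that fit 2 probe sets of all those tested were called, against 121 with the trend.

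SB203580 gave smaller differences that did not pass the test. Against controls, 0 of 18 member probe sets were called by limma, where 0.389% of all probe sets were called in either direction. The lowest adjusted p was 0.208, and 5 of the 18 member probe sets had an unadjusted p under 0.05, against 9.36% of all probe sets. The brightest probe set was below 0 in 10 of 10 genes, with a median of -0.25 log2 and a range of -0.42 to -0.11. Over all probe sets the median was 0.01, and 48.8% were below 0. Pdia6 had the largest of these differences, with 1643.0, 4339.1 and 4440.7 in SB, against 2216.9, 5896.8 and 5846.6 in WT (-0.42 ± 0.14 log2, limma, adjusted p = 0.294). Its SB values were below the WT values in each array type. The brightest Hspa5 probe set read 8723.1, 18483.2 and 18258.8 in SB, against 9641.5, 24346.2 and 21536.6 in WT, and again did not overlap (-0.26 ± 0.12 log2, limma, adjusted p = 0.507). Manf read 2055.4, 5053.3 and 4192.7 in SB, against 2163.1, 6622.6 and 6012.7 in WT (-0.33 ± 0.13 log2, limma, adjusted p = 0.405). The 95% intervals of the genes extended 0.25 to 0.64 log2 to each side, so changes of the size seen with U0126 were outside the interval for Hspa5 and Manf but inside it for Pdia6.

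SP600125 left the members near the control values. No member probe set was called by limma (0 of 18), none had an unadjusted p under 0.05, and the lowest adjusted p was 0.652, where 0.592% of all probe sets were called in either direction. Of all probe sets 8.52% had an unadjusted p under 0.05. Of the 10 genes 5 were below 0, and the median was 0.01 log2, beside -0.002 over all probe sets, of which 50.4% were below 0. The brightest Hspa5 probe set read 8563.0, 23180.3 and 21479.5 in SP, against 9641.5, 24346.2 and 21536.6 in WT, a difference of -0.08 ± 0.12 log2 with a 95% interval of -0.33 to 0.17. Manf read 2261.2, 6738.8 and 5860.1 in SP, against 2163.1, 6622.6 and 6012.7 in WT, with a 95% interval of -0.26 to 0.29 log2. The largest difference was that of the dim Pdia4, at 295.5, 301.6 and 593.8 in SP, against 247.9, 458.5 and 211.4 in WT. The SP array of replicate 3 was the bright one, and the difference came to 0.37 ± 0.30 log2 (limma, adjusted p = 0.841). Dnajb9 was higher in SP in 3 of 3 replicates, at 1137.5, 2284.4 and 1889.8 in SP, against 1029.2, 1720.5 and 1556.4 in WT (0.28 ± 0.15 log2, limma, adjusted p = 0.652).

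**Figure D3:**
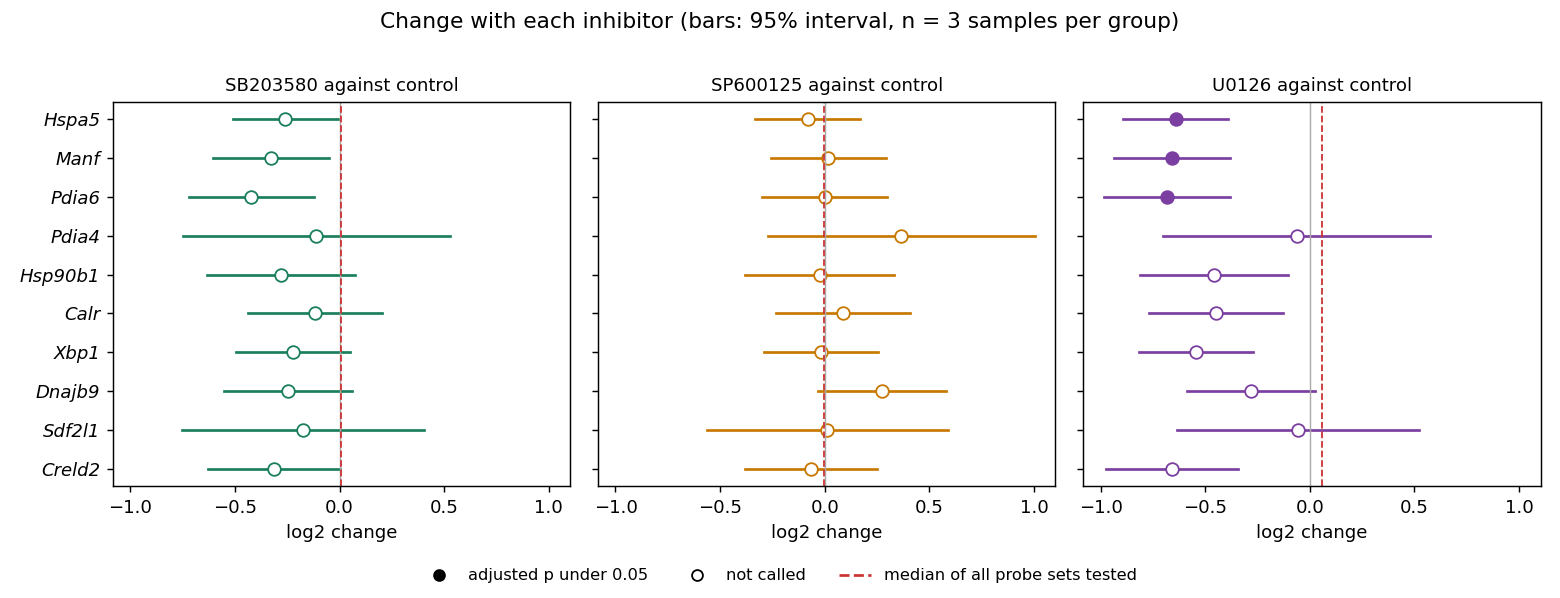
Log2 change of the brightest probe set of each gene against WT for each inhibitor, with bars for the 95% interval (3 samples per group), filled points for adjusted p under 0.05 and a dashed line for the median of all probe sets tested. All 10 points lie below 0 with U0126 (median -0.50) and with SB203580 (median -0.25), and 5 lie below 0 with SP600125.

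The inhibitors were then set against each other, which tests their differences directly. SP600125 and U0126 differed most. In SP against U, 7 of 18 member probe sets were called, all higher in SP, where 1.44% of all probe sets were called higher. They cover 6 genes: Hspa5 (2 probe sets), Manf, Pdia6, Creld2, Dnajb9 and Xbp1. The brightest probe sets had a median difference of 0.55 log2 over the 10 genes, with a range of 0.07 to 0.68, beside -0.07 over all probe sets tested. Pdia6 read 2179.4, 5523.1 and 6329.6 in SP, against 1871.3, 3300.2 and 2972.3 in U (0.68 ± 0.14 log2, limma, adjusted p = 0.0144). Creld2 read 1605.8, 3834.7 and 3505.9 in SP, against 1390.4, 2099.9 and 2144.9 in U (0.59 ± 0.15 log2, limma, adjusted p = 0.0412). In both genes SP exceeded U in 3 of 3 replicates without overlap.

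Xbp1 read 3082.0, 8229.3 and 7180.3 in SP, against 2268.9, 4780.4 and 5604.8 in U (0.53 ± 0.13 log2, limma, adjusted p = 0.0363). For Dnajb9 the values were 1137.5, 2284.4 and 1889.8 in SP, against 704.2, 1335.7 and 1619.2 in U (0.56 ± 0.15 log2, limma, adjusted p = 0.0475). Both genes were higher in SP in 3 of 3 replicates. The remaining called differences were 0.67 ± 0.13 log2 for Manf (limma, adjusted p = 0.00945) and 0.56 ± 0.12 and 0.90 ± 0.13 log2 for the Hspa5 probe sets (limma, adjusted p = 0.0163 and 0.0012). The count of calls was 5 without replicate 1 of SP, 2 without replicate 2 or 3 of SP, 9 without replicate 1 of U, 2 without replicate 2 of U and 5 without replicate 3 of U.

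With SB203580 the members' median lay between those of the other inhibitors. In SB against U, 1 of 18 member probe sets was called, higher in SB, where 0.533% of all probe sets were called higher. It was Hspa5 1427464_s_at, at 2626.0, 5794.6 and 6226.6 in SB, against 1742.2, 3412.4 and 3387.9 in U (0.74 ± 0.13 log2, limma, adjusted p = 0.00901), and the values did not overlap within array type. The adjusted p rose past the threshold without replicate 1 of SB or replicate 3 of U, and 2 probe sets were called without replicate 1 of U. The brightest probe set was higher in SB in 8 of 10 genes, with a median of 0.29 log2. Over all probe sets the median was -0.06, and 56.5% were below 0. In SB against SP, 0 of 18 were called by limma, 4 had an unadjusted p under 0.05 and the lowest adjusted p was 0.125. Of all probe sets in this comparison 0.788% were called in either direction, 10.6% had an unadjusted p under 0.05 and 48.3% were below 0. All 10 genes were below 0 there, with a median of -0.25 log2, and Dnajb9 had the largest difference, at 815.6, 1451.0 and 1386.0 in SB, against 1137.5, 2284.4 and 1889.8 in SP (-0.52 ± 0.15 log2, limma, adjusted p = 0.125). Comparisons that share a group are not independent of each other.

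**Figure D4:**
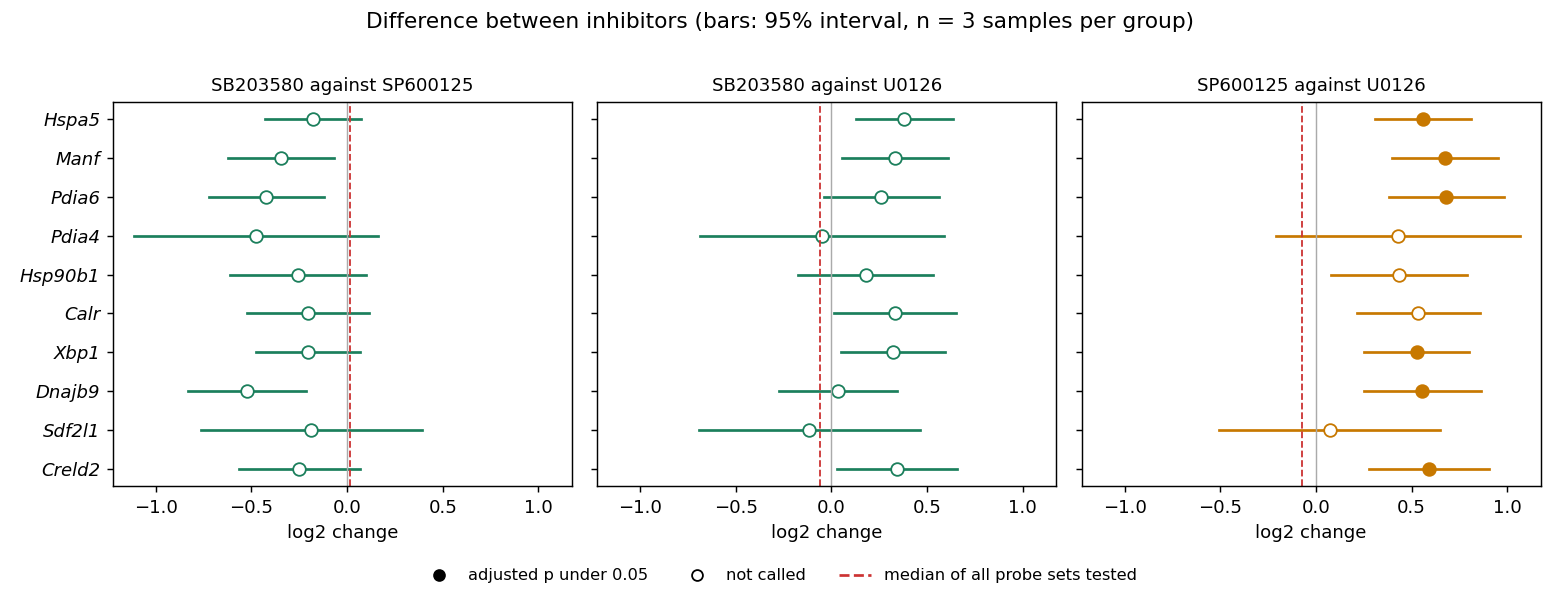
Log2 difference of the brightest probe set of each gene between inhibitors, first-named minus second-named, with bars for the 95% interval (3 samples per group), filled points for adjusted p under 0.05 and a dashed line for the median of all probe sets tested. In SP600125 against U0126 all 10 points lie above 0 and 6 are filled.

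The members varied together to different degrees. Each gene's deviations from its array-type mean over the 12 samples were set against the mean deviation of the other 9 genes, as a description in which group differences and array scaling are shared by all genes. Pearson's r was 0.94 for Manf, 0.93 for Hspa5 and 0.91 for Pdia6 and for Creld2. It was 0.80 for Xbp1, 0.75 for Calr, 0.69 for Hsp90b1 and 0.66 for Dnajb9, and 0.34 and 0.33 for the dim Sdf2l1 and Pdia4. Among 12604 tested genes that are not members, those closest to the mean of the 10 members were Tdrd3 (r = 0.96), Tmem41a (0.94), Rrm1 (0.94), Psmd12 (0.92) and Sec23ip (0.92). Rrm1, the large subunit of ribonucleotide reductase, read 2753.7, 3209.6 and 3329.9 in U, against 3810.3, 5485.3 and 5203.9 in WT (-0.63 ± 0.11 log2, limma, adjusted p = 0.0114). Dnajb11, the ER J-domain protein ERdj3, ranked 8 of the 12604 (r = 0.92). Other ER chaperones and folding enzymes that are not members were spread over the ranking. Examples are Dnajc3 (r = 0.75, rank 206), Hyou1 (0.18, rank 3671), Ppib (-0.26, rank 8157) and Sil1 (-0.68, rank 11977).

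Other genes of the ER did not pass the test with U0126 in any of 7 lists, and medians differed between lists. Of 24 further ER chaperones and folding enzymes tested, none was called by limma, 7 had an unadjusted p under 0.05, 19 were below 0, and the median was -0.18 log2. With median centring 21 were below 0 and the median was -0.37. Dnajc3 (P58IPK), a cochaperone that restrains PERK, read 302.7, 596.2 and 696.7 in U, against 597.3, 1380.0 and 843.1 in WT (-0.81 ± 0.23 log2, limma, adjusted p = 0.155). Its U values were the lower ones within each array type. Dnajb11 read 1072.1, 1883.8 and 1784.9 in U, against 1234.1, 3016.1 and 2583.7 in WT (-0.47 ± 0.14 log2, limma, adjusted p = 0.172). Neither gene was called. In SP against U, Dnajb11 (0.65 ± 0.14 log2, limma, adjusted p = 0.0178) and Erp44, which retains secretory proteins through disulfides (0.57 ± 0.13 log2, limma, adjusted p = 0.0282), were called higher in SP. In SB against U, Pdia5, a disulfide isomerase (0.76 ± 0.16 log2, limma, adjusted p = 0.0274), and Uggt1, which marks unfinished glycoproteins for another folding round (0.59 ± 0.14 log2, limma, adjusted p = 0.0474), were called higher in SB.

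The medians of the next lists lay close to 0 with the deposited scaling. Median centring puts them lower, at -0.13 for ER-associated degradation, -0.15 for the sensors, -0.25 for the translocon, -0.29 for the oligosaccharyltransferase, -0.26 for ER to Golgi transport and -0.12 for the cytosolic and mitochondrial chaperones. The median log2 change in U against WT was 0.06 for 19 genes of ER-associated degradation, with 9 below 0 and 1 at an unadjusted p under 0.05. It was 0.04 for 8 sensors and activating proteases of the response, with 4 below 0 and 2 at an unadjusted p under 0.05, Mbtps1 (0.39 ± 0.13 log2) and Mbtps2 (-0.39 ± 0.17 log2), the proteases that free ATF6. It was -0.06 for 16 genes of the translocon and signal peptidase, -0.10 for 10 oligosaccharyltransferase genes and -0.07 for 23 genes of transport from ER to Golgi, with 1, 1 and 2 genes at an unadjusted p under 0.05 in that order. In these 3 lists Ssr3 of the translocon gave -0.40 ± 0.15, Ostc of the oligosaccharyltransferase -0.33 ± 0.11 and Sec23b, a coat protein of vesicles leaving the ER, -0.33 ± 0.11 log2. Their adjusted p-values by limma were 0.289, 0.197 and 0.231. Ostc was called higher in SB against U (0.47 ± 0.11 log2, limma, adjusted p = 0.0362). Of 18 cytosolic and mitochondrial chaperones, none was called in U against WT, 2 had an unadjusted p under 0.05, and the median was 0.07 log2. In SP against U, 1 of these chaperones was called, higher in SP. In that comparison 1 of the 8 sensors and proteases was also called, lower in SP, the opposite side of 0 from the members.

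The output of the PERK branch gave no call with U0126. Of its 10 genes, 1 was below 0 in U against WT and the median was 0.20 log2 with the deposited scaling, with none called by limma and 4 at an unadjusted p under 0.05. With median centring 4 were below 0 and the median was 0.01, and with quantile normalization 3 were below 0 and the median was 0.18. Ddit3 (CHOP), a factor linked to stress-induced cell death, gave 0.63 ± 0.27 log2 and Atf4 0.20 ± 0.11 log2, which was 0.01 with median centring. Nupr1, a stress-induced nuclear protein, read 283.5, 1478.7 and 1465.4 in U, against 222.3, 950.8 and 935.0 in WT (0.54 ± 0.20 log2, limma, adjusted p = 0.298). Chac1, which degrades glutathione, was the gene below 0, at 219.2, 283.5 and 590.7 in U, against 487.8, 597.3 and 622.9 in WT (-0.74 ± 0.27 log2, limma, adjusted p = 0.28). With SP600125, which left the members near control values, 2 of these 10 genes fell. Nupr1 read 84.3, 304.4 and 326.0 in SP, against 222.3, 950.8 and 935.0 in WT (-1.46 ± 0.20 log2, limma, adjusted p = 0.00227). Chac1 read 190.9, 193.8 and 198.2 in SP, against 487.8, 597.3 and 622.9 in WT (-1.48 ± 0.27 log2, limma, adjusted p = 0.0161). In SP against U, Nupr1 and Atf4 were lower in SP (-1.99 ± 0.20 and -0.50 ± 0.11 log2, limma, adjusted p = 8.14e-05 and 0.0242), the opposite side of 0 from the members. Nupr1 was also lower in SB against U (-1.10 ± 0.20 log2, limma, adjusted p = 0.0109). With SB203580 all 10 genes of this list were below 0, none was called by limma, 2 had an unadjusted p under 0.05, and the median was -0.22 log2.

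**Figure D5:**
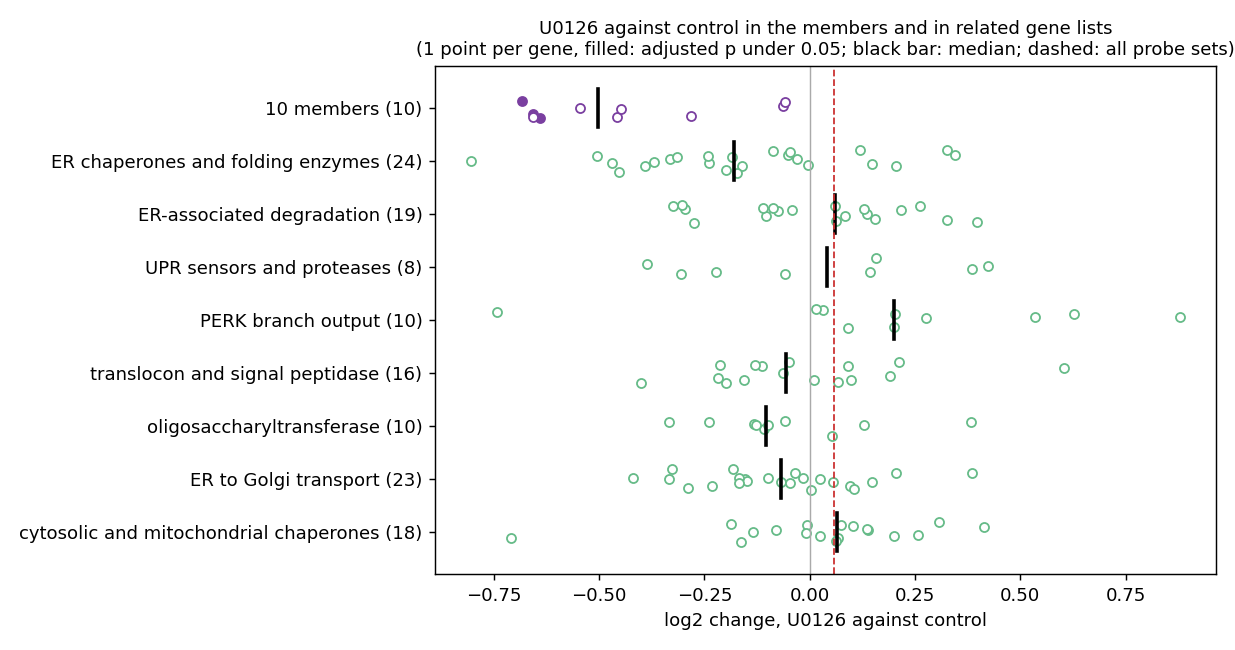
Log2 change in U0126 against WT, 1 point per gene (brightest probe set), for the 10 members and 8 lists of related genes, with the number tested in parentheses, filled points for adjusted p under 0.05, a black bar for each list's median and a dashed line for the median of all probe sets tested (0.06). The members' median is -0.50 and that of the further ER chaperones -0.18, which median centring moves to -0.69 and -0.37. The PERK output is the list with the highest median, 0.20, which median centring moves to 0.01.

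Outside the members, genes with the exact promoter element had a median change near 0. Of 37 genes with an exact match 16 were tested. In U against WT the 5 members among them had a median of -0.64 log2, with 2 called, and the 11 others had a median of -0.004 log2, with 6 below 0, none called by limma and 3 at an unadjusted p under 0.05. The 10180 tested genes without a match had a median of 0.05 log2. Among the others, the lowest were Tdrd9, a germline helicase, at -1.16 ± 0.47 log2, and Dnajc3, the ER cochaperone described above, at -0.81 ± 0.23 log2, neither called. Further ER genes of this group were Syvn1, the ubiquitin ligase HRD1, which gave -0.30 ± 0.16 log2, Canx (calnexin), the membrane-bound relative of calreticulin, -0.16 ± 0.13 log2, and Ero1b, an oxidase that recharges disulfide isomerases, 0.33 ± 0.24 log2. Derl3, of ER-associated degradation, gave -0.04 ± 0.29, and Alg12, which builds the sugar chain added to proteins, 0.49 ± 0.35 log2, and the highest was Acacb, an acetyl-CoA carboxylase, at 0.94 ± 0.44 log2. Alg12 and Acacb were dim too, at 87.4, 76.5 and 56.9 and at 20.6, 63.1 and 66.7 in WT. The members without an exact match, Pdia4, Xbp1, Dnajb9 and Sdf2l1, gave -0.06, -0.55, -0.28 and -0.06 log2. Manf, which was called, was not searched.

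Markers of the blastocyst's cell types moved with the inhibitors as well. For 16 primitive endoderm markers, the secretory layer, the median log2 change was -0.58 in U against WT with 16 below 0 and 2 called lower, Gata6 and Amn. Their summed signal was 22442.8, 35215.2 and 45350.1 in U, against 32115.4, 55402.5 and 52889.0 in WT, and so lower in U within each array type. In SP against WT the same markers had a median of -1.33 with 11 called lower, and their summed signal was 20415.5, 38802.4 and 36631.5 in SP, while the members' median there was 0.01. In SB against WT the median was -0.57 with 1 called lower, Amn, and the summed signal was 21877.7, 43819.7 and 45473.0 in SB. For 8 markers of inner cell mass and epiblast the median was 0.65 in U against WT, with Sox2 and Fgf4 called higher. Nanog was the 1 marker below 0 (-0.34 ± 0.20 log2, limma, adjusted p = 0.525). The summed signal of the 8 was 9541.8, 20054.1 and 17353.2 in U, against 6034.1, 14075.3 and 15600.0 in WT. For 9 trophectoderm markers the median was -0.09 in U against WT, with none called by limma and 2 at an unadjusted p under 0.05. In SB against WT all 9 were below 0, with a median of -0.195, none called and 4 at an unadjusted p under 0.05. Their summed signal was 37883.5, 95166.5 and 98284.0 in SB, against 43837.1, 105790.5 and 112208.7 in WT. In SP against WT the median was 0.04, with 4 of the 9 below 0 and 1 called lower, Elf5 (-1.14 ± 0.23 log2, limma, adjusted p = 0.0294). Eomes lay on the other side of 0 and was not called (0.52 ± 0.13 log2, limma, adjusted p = 0.0856). The part of cell-type shares in the members' changes was not tested.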

How the data were processed

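Total RNA of 12 samples (4 groups of 3) was read on 16 Affymetrix arrays. The authors deposited signal intensity per probe set on a linear scale, and the values show that each array was scaled to a mean of 500 with 2 percent trimmed at each end; how background was corrected and probes were summarised, and with which software, the sources used here do not say. Groups follow the labels. Replicate 1 joined its 430A and 430B arrays. Of 45037 probe sets, 27022 (12614 genes) had a mean over the 430 2.0 arrays at or above the 40th percentile of such means (42.91) and were tested. The analysis took log2(signal + 12.6), the 20th percentile as pseudocount, and fitted limma 3.58.1 in R 4.3.3 with group and array type, an intensity trend, two-sided tests and Benjamini-Hochberg adjustment; 7 residual degrees of freedom were joined by a median of 9.71 prior ones. The number of arrays limits the precision. The fit was run on data simulated from its own means and spread with independent noise, which checks the code and not the calls. The members and all gene lists were chosen with earlier results of these data known. Each gene is shown by its probe set with the highest mean on the 430 2.0 arrays. From each related list, up to 3 called genes are named, or the 2 with the largest statistic where none was called. Ddit3, Atf4, the marker genes and the promoter genes named were chosen after their values were seen. Gene names come from the platform annotation, where 932 probe sets name several genes and 9160 none.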

Additional observations from a re-analysis of the deposited data

How the results depend on the processing

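Calls of member probe sets were recomputed under other settings. The count in U against WT was 4; it was 7 with median centring within array type and 0 without the intensity trend. In SP against U it was 7, against 11 with median centring, 4 with no filter on dim probe sets and 0 without the trend. In SB against U it was 1, and 0 without the trend. Leaving out 1 sample at a time gave 1 to 7 calls in U against WT, 2 to 9 in SP against U, 0 to 2 in SB against U, and 0 to 0 in SB against WT, SP against WT and SB against SP. Whether equal replicate numbers pair the samples is unknown. The difference of replicates 2 and 3 correlated weakly between groups, at r = 0.018 to 0.088 over 27022 probe sets. With a replicate block the member counts were again 4 in U against WT, 7 in SP against U, 1 in SB against U and 0 in the others. Over all probe sets 148 were called in U against WT with that block, against 121 without it. No called change turned its sign. Of 420 gene-level recomputations against WT, 373 kept their direction and side of the threshold, and 4 newly passed it. Most of the 373 were uncalled in the main fit too. In 19 the call was lost, all in U against WT for Hspa5, Manf and Pdia6, the only genes with a call to lose. Among 8 other settings and 6 omissions, the brightest Hspa5 probe set was called in 7 and 1. For Manf these counts were 7 and 2, and for Pdia6 5 and 1. A further 24 recomputations changed sign, all of them small changes that were never called. Most were in SP against WT, where on the 430 2.0 arrays alone Manf was -0.006, Pdia6 0.01 and Xbp1 0.063 log2, and with quantile normalization Sdf2l1 was -0.008. Leaving out 1 sample at a time, SP against WT ranged from -0.156 to 0.031 for Hspa5, -0.09 to 0.097 for Manf, -0.087 to 0.082 for Pdia6, -0.113 to 0.109 for Hsp90b1, -0.074 to 0.226 for Calr, -0.117 to 0.093 for Xbp1, -0.088 to 0.074 for Sdf2l1 and -0.165 to 0.092 for Creld2. Pdia4 ranged from -0.381 to 0.191 in SB against WT and from -0.332 to 0.24 in U against WT, its positive value coming without replicate 2 of WT, and Sdf2l1 from -0.174 to 0.06 in U against WT. The cause was not tested. On the 430 2.0 arrays alone the median of the 10 genes in U against WT was -0.68 log2 and 5 probe sets were called. The limits are 3 samples per group, 2 labelling assays, a scaling that fixes each array's trimmed mean, and dim signals for Pdia4 and Sdf2l1, whose intervals are wide.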
